A study of Triticum aestivum with 10 samples.

Results

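Peroxides, chiefly hydrogen peroxide, are removed in plant cells by several enzyme families. Catalases split hydrogen peroxide in peroxisomes without needing a reductant, peroxidases use it to oxidize other molecules, and peroxiredoxins reduce peroxides through a reactive cysteine. In barley, PER1 is a peroxiredoxin with 1 conserved cysteine, found in the aleurone and the embryo of maturing and dormant seeds. Transcripts of 1 member of each family were followed here through the growth of the wheat grain, namely the peroxidase gene Prx1 (LOC606328), the catalase gene CAT1 (also wcat1) and the peroxiredoxin gene PER1 (LOC543108, for which RefSeq also lists the name peroxidase). All probe sets that the annotation of the array pairs with these 3 genes were taken, 8 of the 1273 probe sets with a gene symbol and of 61179 in all. Prx1 had 4 of them, CAT1 2 and PER1 2.

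The arrays were Affymetrix wheat GeneChips hybridized with total RNA of greenhouse grain, endosperm and embryo together, of Triticum aestivum cv. Récital. There were 5 stages, named 100, 200, 250, 300 and 500 degree days (DD, the sum of daily temperatures after pollination), with 2 arrays each. The first 3 stages fall in cell division and the last 2 in filling. The labelled sampling times of replicate 1 were 130, 185, 230, 290 and 490 DD, and those of replicate 2 were 100, 200, 250, 300 and 500 DD. Replicates came from 2 harvests, so a p-value here measures the spread between single arrays of different harvests. Values are on the log2 scale after GCRMA, a normalization that corrects each probe for background binding, and a probe set was tested if 2 or more arrays reached 4.

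The array labelled 100 DD replicate 2 stood apart, and it was left out of all means and tests below unless named. Its correlation across probe sets, taken as a description, was 0.628 with 100 DD replicate 1, 0.972 with 500 DD replicate 1 and 0.987 with 500 DD replicate 2. The stage of 100 DD therefore rests on 1 array. The mean log2 signal of the poly(A) spike-ins was low on 200 DD replicate 1 (4.28) and 300 DD replicate 1 (5.04), where other arrays had 7.07 to 9.50. Of 24727 probe sets tested with limma, 26.7% differed between stages after Benjamini-Hochberg adjustment. The labelled tissue was checked against markers. Of 6 probe sets of the starchy endosperm (the gliadin genes gli-2 and GAG56D and the starch genes AGP-S and GBSS), between 5 and 6 were at or above 4 on each array from 200 DD on, and 2 on the single 100 DD array. None of 9 probe sets of the embryo and aleurone (Em, EM, WGA2 and Rab15) reached 4 before 300 DD, and all 9 did at 500 DD. Values under 4 do not show that embryo or aleurone was absent from the earlier grain.

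Prx1 declined from stage to stage, CAT1 was highest at 200 DD and lowest at 500 DD, and PER1 was not detected on the single 100 DD array and was highest at 500 DD. At least 1 probe set of each gene could be tested, 5 in all, and the other 3 stayed under 4 on all 10 arrays. All 5 of these differed between the 5 stages by limma, against 26.7% of all probe sets. At 500 DD against 200 DD, the 2 stages farthest apart that have 2 arrays each, 4 probe sets were lower (background 12.1%). They were 3 of Prx1 and that of CAT1, and 1, that of PER1, was higher (background 9.77%). In counts, members are these 5 probe sets, so Prx1 enters with 3 that are not independent. The members were few and were named with earlier results of these data in view, so these counts describe them and carry no test of their own. The brightness of a probe set is also set by its probes, so each gene is compared below only with itself.

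**Figure D1:**
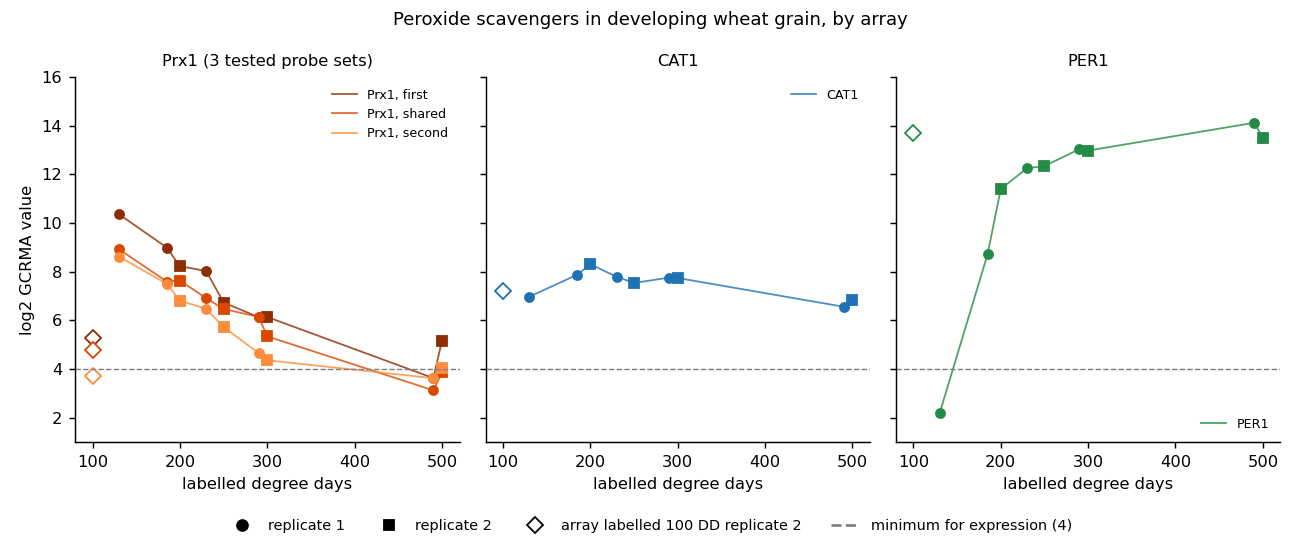
Log2 GCRMA values (vertical axis) of the 5 tested probe sets of Prx1, CAT1 and PER1 against the degree days on the sample labels (horizontal axis), with 1 point per array, circles for replicate 1, squares for replicate 2, open diamonds for the array labelled 100 DD replicate 2 and a dashed line at 4, the minimum used for expression. The 3 Prx1 probe sets (first, shared and second) descend from their highest value on 100 DD replicate 1, CAT1 stays between 6.56 and 8.31, and PER1 climbs from 2.18 on 100 DD replicate 1 to 14.12 and 13.51 on the 500 DD arrays.

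The first Prx1 probe set had a log2 value of 10.37 on the single 100 DD array. It stood at 8.99 and 8.23 at 200 DD, 8.03 and 6.73 at 250 DD, 6.13 and 6.14 at 300 DD, and 3.63 and 5.17 at 500 DD. Each stage mean lay below that of the stage before, and the replicates overlapped between no neighbouring stages. The shared Prx1 probe set, designed from the same transcript sequence as the first, had log2 values of 8.93 at 100 DD, 7.60 and 7.64 at 200 DD, 6.91 and 6.47 at 250 DD, 6.15 and 5.34 at 300 DD, and 3.13 and 3.86 at 500 DD. Both 500 DD values were under 4, the level below which expression is not called here. Its name ends in _a_at, which marks probes common to several transcripts of a gene, so it and the first are not independent. The second Prx1 probe set, from another transcript sequence, had log2 values of 8.62 at 100 DD, 7.50 and 6.81 at 200 DD, 6.48 and 5.72 at 250 DD, 4.66 and 4.36 at 300 DD, and 3.62 and 4.05 at 500 DD. Along the 9 labelled times its value was lower than at the time before in 7 of 8 steps, and those of the other pair in 6 of 8 each.

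The fall of Prx1 was tested between 500 DD and 200 DD. Log2 differences were -4.21 (standard error 0.62, adjusted p = 0.00482 from limma) for the first probe set, -4.13 (standard error 0.37, adjusted p = 7.1e-04) for the shared one and -3.32 (standard error 0.37, adjusted p = 0.00154) for the second. Over all probe sets tested, the median of this difference was -0.07. At 500 DD the shared probe set was under 4 on both arrays, and the first and the second on replicate 1 alone, so the full size of these falls is not measured. The fall was present in each harvest, at -5.36 in replicate 1 and -3.06 in replicate 2 for the first probe set. In each harvest, all 3 probe sets were also lower at 250 DD than at 200 DD, at 300 DD than at 250 DD and at 500 DD than at 300 DD. Over the 5 stages the probe sets passed with an adjusted p = 0.00767, 0.00151 and 0.00193 from limma, for the first, shared and second. Without 200 DD replicate 1 and 300 DD replicate 1, the arrays with low spike-ins, the first probe set no longer passed over the stages (adjusted p = 0.0575) or between 500 and 200 DD (adjusted p = 0.0727).

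Single steps of Prx1 were smaller and mostly did not pass. From 300 to 500 DD, the shared probe set fell by 2.25 (standard error 0.37, adjusted p = 0.0122 from limma), whereas the other probe sets had differences of -1.74 (adjusted p = 0.128) and -0.67 (adjusted p = 0.298). This call ended without 300 DD replicate 1 (adjusted p = 0.0696), without 500 DD replicate 1 (adjusted p = 0.0747) and without a filter on low values (adjusted p = 0.0530). At 200 DD against the single 100 DD array the 3 differences ranged from -1.76 to -1.31, and none passed (adjusted p = 0.0954 to 0.210).

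The last Prx1 probe set lay between 2.07 and 2.10 on all 10 arrays, at background. It was therefore not tested, and it gives no view of the stages.

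The tested probe set of CAT1 had a log2 value of 6.97 on the single 100 DD array, 7.88 and 8.31 at 200 DD, 7.80 and 7.54 at 250 DD, 7.76 and 7.74 at 300 DD, and 6.56 and 6.83 at 500 DD. Both 500 DD values lay below every other value of the 9 arrays, and both 200 DD values above them. Against 200 DD, CAT1 was lower at 500 DD by a log2 difference of -1.40 (standard error 0.24, 95% interval -1.97 to -0.82, adjusted p = 0.00890 from limma). Most of this lay in the last step, in which it fell by 1.06 (standard error 0.24, adjusted p = 0.0364), and it was -1.20 in replicate 1 and -0.91 in replicate 2. From 250 to 300 DD the difference was 0.08, with a 95% interval from -0.49 to 0.66. CAT1 stood higher at 200 DD than on the single 100 DD array by 1.12 (standard error 0.30), which did not pass (adjusted p = 0.0639). It did pass once each array was centred on its median (adjusted p = 0.0479) or after quantile normalization (adjusted p = 0.0469).

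Of the members' calls over the stages, that for CAT1 ended most often when single arrays were left out. Over the 5 stages its adjusted p = 0.0272 from limma. This call ended without 200 DD replicate 2 (adjusted p = 0.0509), 250 DD replicate 1 (0.0535), 300 DD replicate 1 (0.0629), 300 DD replicate 2 (0.0608), 500 DD replicate 1 (0.103) or 500 DD replicate 2 (0.0733). That for 500 against 300 DD ended without any single array of 250, 300 or 500 DD (adjusted p = 0.0577 to 0.152) and without a filter (adjusted p = 0.0595). That for 500 against 200 DD ended without 500 DD replicate 1 (adjusted p = 0.0544), and without both arrays with low spike-ins (adjusted p = 0.0517). The sign of both differences was negative in each of these settings. The other CAT1 probe set lay between 2.49 and 2.91 on all 10 arrays, so the catalase was seen by 1 probe set alone.

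The tested probe set of PER1 had a log2 value of 2.18 on the single 100 DD array, 8.73 and 11.40 at 200 DD, 12.25 and 12.35 at 250 DD, 13.04 and 12.98 at 300 DD, and 14.12 and 13.51 at 500 DD. The value on the 100 DD array was at background, each later stage lay above the one before, and the replicates of neighbouring stages did not overlap. The 200 DD replicates differed by 2.67, with labelled times of 185 and 200 DD, whereas those of 250 DD differed by 0.09. The part of harvest and sampling time in that gap cannot be told apart.

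PER1 passed over the 5 stages (adjusted p = 0.00180 from limma) and was higher at 200 DD than on the single 100 DD array by 7.89 (standard error 0.95, adjusted p = 0.00510), against a background of 5.03% of probe sets higher in this step and 4.93% lower. Because PER1 started at background, the size of this rise is not measured. At 500 DD against 200 DD it was higher by 3.75 (standard error 0.78, adjusted p = 0.0172), which was 5.39 in replicate 1 and 2.11 in replicate 2. The call over the stages ended without the single 100 DD array (adjusted p = 0.0648). The call for 500 against 200 DD ended without 500 DD replicate 1 (adjusted p = 0.0982), without 500 DD replicate 2 (adjusted p = 0.0674) and without a filter (adjusted p = 0.0883). Its value was 5.09 without 200 DD replicate 2, and 2.42 without 200 DD replicate 1. From 200 to 250 DD the difference was 2.23 (95% interval 0.37 to 4.10), which did not pass (adjusted p = 0.963 from limma). It was 3.52 in replicate 1, which rests on 200 DD replicate 1, an array with low spike-ins, and 0.95 in replicate 2. From 250 DD on, steps were small relative to their error. That error is 1 estimate shared by all stages, in which the 200 DD replicates, 2.67 apart, weigh most. The replicates of 250 and 300 DD differed by 0.09 and 0.06, and the step between these stages was 0.79 in replicate 1 and 0.63 in replicate 2. The difference from 250 to 300 DD was 0.71 (95% interval -1.15 to 2.57) and that from 300 to 500 DD 0.81 (95% interval -1.06 to 2.67), and neither passed (smaller adjusted p = 0.570 from limma).

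The other PER1 probe set, whose name ends in _a_at, lay between 3.43 and 3.76 on all 10 arrays and, being under 4 throughout, gives no view of the stages, and the description of PER1 rests on the tested probe set.

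**Figure D2:**
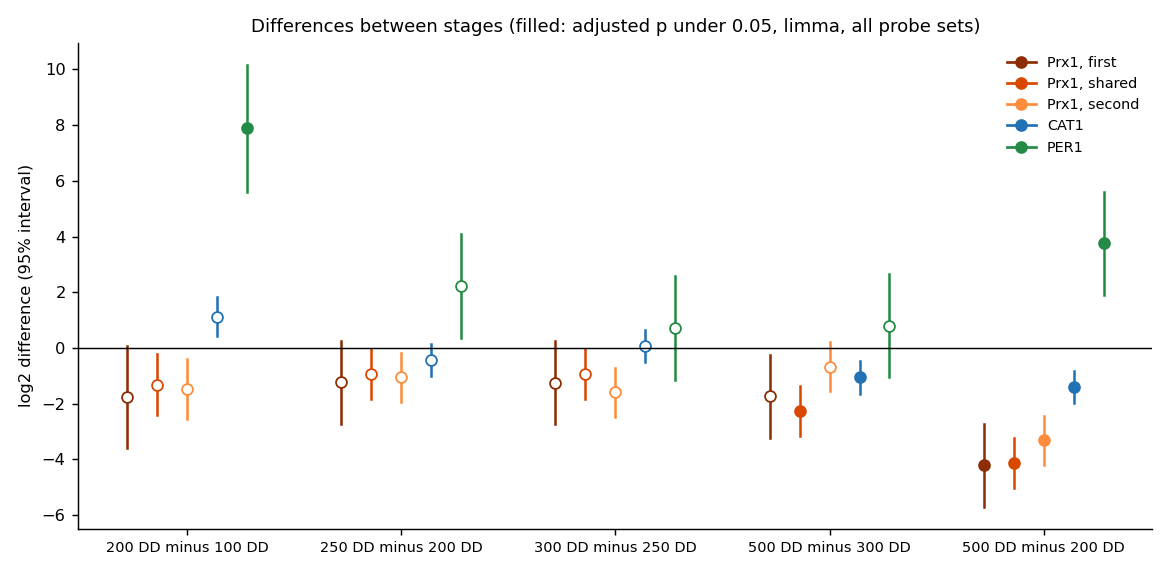
Log2 differences between stages (vertical axis, later minus earlier stage) of the 5 tested probe sets, with bars for the 95% interval from limma and filled points where the adjusted p over all probe sets was under 0.05, for 5 comparisons (horizontal axis). PER1 alone is filled at 200 DD minus 100 DD, 1 Prx1 probe set and CAT1 are filled at 500 DD minus 300 DD, and all 5 probe sets are filled at 500 DD minus 200 DD, with PER1 above 0 and the others below it.

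Calls were then counted step by step. From 100 to 200 DD limma called 1 of 5 probe sets, that of PER1, which was higher (background 5.03%). At an unadjusted p under 0.05 were 4 of 5, against between 19.5% and 26.7% of all probe sets. These bounds are the ranks, among all probe sets, of the member p-values on either side of 0.05, here and below. From 200 to 250 DD limma called 0 of 5, and 0% of all probe sets. At an unadjusted p under 0.05 were 3 of 5, against between 4.47% and 9.11% of all probe sets. The methods' t-test after Benjamini-Hochberg adjustment called 1 (PER1), and its count over all probe sets stands in the last paragraph. From 250 to 300 DD limma called 0 of 5, and 0.105% of all probe sets, and the methods' t-test called 0 of 5. At an unadjusted p under 0.05 were 2 of 5, against between 4.06% and 7.80% of all probe sets. From 300 to 500 DD, 2 of 5 were lower (background 6.01%), those of CAT1 and 1 of Prx1, and 0 were higher (background 6.28%). At an unadjusted p under 0.05 were 3 of 5, against between 22.2% and 37.4% of all probe sets. Between stages of 2 arrays, the standard error of a difference was 0.78 for PER1 and 0.24 for CAT1. Whether the members differed in the step at which they moved was not tested.

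Between members, values were compared by their pattern alone. Over the 9 arrays PER1 correlated with the Prx1 probe sets at r = -0.77 to -0.86, and the Prx1 probe sets among themselves at r = 0.94 to 0.98. CAT1 correlated with the Prx1 probe sets at r = 0.35 to 0.55, and at r = 0.76 to 0.93 over the 8 arrays from 200 DD on. With PER1 it correlated at r = 0.06, and at r = -0.63 over those 8 arrays, a change that comes with the single 100 DD array, where CAT1 was low, Prx1 highest and PER1 at background. These points share their stages and libraries, and the correlations are a description.

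Of the other genes that the annotation names, those most like PER1 over the 9 arrays were TTHV (r = 0.996), LOC542863 (r = 0.989) and LOC543483 (r = 0.987), among 892 probe sets compared. Over the 8 arrays from 200 DD on, their correlations were 0.977, 0.983 and 0.922. Prx1 was most like LOC780593 (r = 0.984), OEE1 (LOC543291, r = 0.983), which encodes a photosystem II protein that helps split water, and LOC100049048 (r = 0.981) by the shared probe set, with 890 compared. By the first it was most like lgul (LOC542984, r = 0.974), which encodes a lactoylglutathione lyase, LOC542968 (r = 0.965) and LOC543002 (r = 0.964). By the second it was most like Pgk-1 (LOC543496, r = 0.980), a phosphoglycerate kinase, lgul (LOC542984, r = 0.975) and TEF1 (LOC543386, r = 0.963). CAT1 was most like LOC100037645 (r = 0.937), LOC542880 (r = 0.919) and LTP3 (LOC543095, r = 0.902), a lipid transfer protein.

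PER1 was detected before the embryo and aleurone markers. At 200 DD, where PER1 had values of 8.73 and 11.40, a probe set of Em (LOC543480), a late embryogenesis protein, was at 2.16 and 2.17, that of WGA2 (LOC543494), a wheat germ agglutinin, at 1.91 and 2.25, and one of Rab15 (LOC543293), a dehydrin, at 2.31 and 2.81, all at background. At 300 DD, between 4 and 6 of the 9 marker probe sets were at or above 4. From 300 to 500 DD, the summed linear signal of the 9 marker probe sets stood at 97021 and 98289 at 500 DD against 351.2 and 397.2 at 300 DD. In the same step PER1 had a difference of 0.81 (standard error 0.78), which did not pass (adjusted p = 0.570 from limma), with 1.08 in replicate 1 and 0.53 in replicate 2. All 9 were called higher at 500 than at 200 DD (background 9.77%). Em and PER1 thus differed in when they became detectable, and their probes differ in sensitivity. In the step in which PER1 appeared, probe sets of the gliadin genes of the starchy endosperm appeared too. On the single 100 DD array gli-2 (LOC543210) was at 2.20 and a probe set of GAG56D (LOC543214) at 2.96. At 200 DD gli-2 was at 14.44 and 14.92, and GAG56D at 13.11 and 13.43. AGP-S and GBSS were already at 10.78 and 9.77 on the single 100 DD array. The part of endosperm, embryo and aleurone growth in the values of PER1 was not tested. In whole grain, a change in the number of cells that hold a transcript and a change in its amount per cell cannot be told apart.

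Markers fixed for photosynthetic tissue such as the green pericarp were OEE1 and genes to be found by their descriptions, which were not available. OEE1 therefore stands alone, with 1 probe set, and it declined beside Prx1. Its log2 value was 11.17 on the single 100 DD array, 10.85 and 10.62 at 200 DD, 10.25 and 9.81 at 250 DD, 9.52 and 8.74 at 300 DD, and 6.42 and 6.90 at 500 DD. Its difference of 500 from 200 DD was -4.07 (adjusted p = 5.5e-04 from limma), next to -4.21, -4.13 and -3.32 for Prx1. The part of green tissue in the decline of Prx1 was not tested. Of the 6 endosperm probe sets, 1 was lower in the same comparison (background 12.1%) and 0 were higher (background 9.77%). The lower one was that of AGP-S (LOC543299), a subunit of the enzyme that makes ADP-glucose for starch, at -1.10 (adjusted p = 0.0132 from limma), and the other differences ranged from -0.27 to 0.40.

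**Figure D3:**
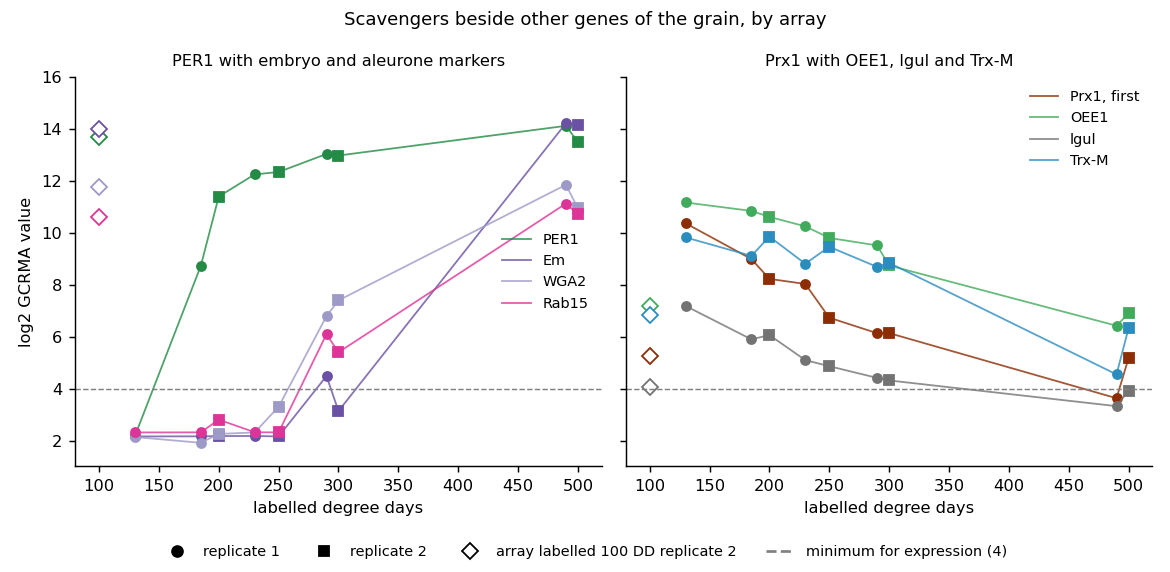
Log2 GCRMA values (vertical axis) of PER1 with Em, WGA2 and Rab15 on the left, and of Prx1 with OEE1, lgul and Trx-M on the right, against the labelled degree days (horizontal axis), with 1 probe set per gene, symbols for replicates as marked, open diamonds for the array labelled 100 DD replicate 2 and a dashed line at 4. PER1 stands at 8.73 and 11.40 at 200 DD, where the 3 markers lie under 4, and OEE1, lgul and Prx1 descend together.

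No other annotated gene has catalase, peroxidase, peroxiredoxin, ascorbate, glutathione, thioredoxin or the like spelled out in its symbol or further names. Gene descriptions were not available to search, so this does not show that such genes are lacking from the array. Genes of redox and detoxification were therefore picked by symbol, after the annotation had been read, and gave 8 tested probe sets of 5 genes. Of these, 5 passed over the stages (background 26.7%), and at 500 against 200 DD 3 were lower (background 12.1%) and 0 higher. The median difference was -0.55, against -0.07 over all probe sets. The probe sets lower at 500 DD were those of lgul (LOC542984), an enzyme that clears methylglyoxal with the help of glutathione, at -2.63 and -2.36 (adjusted p = 7.6e-04 and 0.00154), and of Trx-M (LOC542973), a thioredoxin of plastids, at -4.05 (adjusted p = 0.00455). The lgul probe set with the difference of -2.63 was at 6.88 on the single 100 DD array, 5.40 and 5.67 at 200 DD, 4.39 and 3.95 at 250 DD, 3.37 and 3.11 at 300 DD, and 2.88 and 2.94 at 500 DD. It was thus under 4 on 250 DD replicate 2 and on all arrays from 300 DD on, and no longer measured there. Trx-M (LOC542973) stayed between 8.69 and 9.86 on the 7 arrays up to 300 DD and was at 4.55 and 6.32 at 500 DD.

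HGGT (LOC543094), which makes precursors of the antioxidant tocotrienols, rose up to 300 DD, as PER1 did, and unlike PER1 was lower at 500 DD. Its difference between 200 DD and the single 100 DD array was 3.21. It was at 5.42 on the single 100 DD array, 8.40 and 8.86 at 200 DD, 9.27 and 9.21 at 250 DD, 9.62 and 9.31 at 300 DD, and 8.61 and 8.23 at 500 DD. It passed over the stages (adjusted p = 0.00171 from limma), with a difference of -1.04 from 300 to 500 DD (adjusted p = 0.0493), the same step in which CAT1 fell. The 3 probe sets of GSTZ1 (LOC543412), a glutathione transferase, did not move as one, of which 1 passed over the stages (adjusted p = 0.0350 from limma, against 0.271 and 0.442 for the others). PCS1 (LOC542834), a phytochelatin synthase that uses glutathione, lay between 5.84 and 7.29 and did not pass (adjusted p = 0.0873).

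On the array labelled 100 DD replicate 2, members had values of the late grain. PER1 stood there at 13.69, close to its 14.12 and 13.51 at 500 DD and far from its 2.18 on 100 DD replicate 1. The first, shared and second Prx1 probe sets were at 5.26, 4.77 and 3.72. Their differences from 100 DD replicate 1 were -5.11, -4.16 and -4.90, and those from the mean of 500 DD were 0.86, 1.28 and -0.12. CAT1, at 7.22, was 0.25 above 100 DD replicate 1 and 0.52 above the mean of 500 DD, and its own values at 500 and 100 DD lay close together. Em (LOC543480) was at 13.99 on this array by the same probe set as above, against 2.16 on 100 DD replicate 1. With all 10 arrays in the fit, 0 of the 5 members passed over the stages by limma (adjusted p = 0.206 to 0.731), and the differences of Prx1 between 200 and 100 DD changed sign, since the 100 DD mean then joins values of 5.26 and 10.37.

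**Figure D4:**
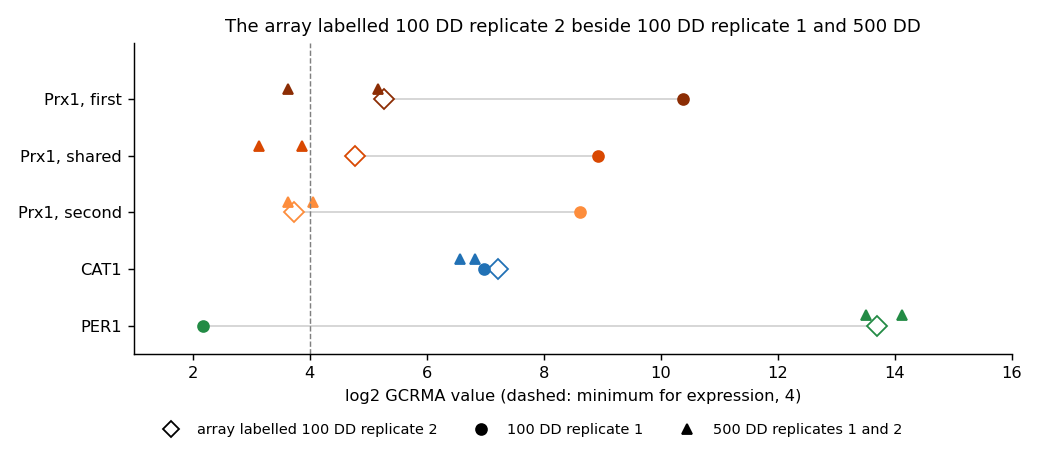
Log2 GCRMA values (horizontal axis) of the 5 tested probe sets (vertical axis) on the array labelled 100 DD replicate 2 (open diamonds), on 100 DD replicate 1 (circles) and on the 500 DD arrays (triangles), with a grey line between the arrays that share the 100 DD label and a dashed line at 4. For PER1 and Prx1 the diamond lies by the triangles and away from the circle, while for CAT1 the 4 values lie between 6.56 and 7.22.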

How the data were processed

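The authors read the CEL files of 10 Affymetrix wheat arrays into Bioconductor, normalized them with GCRMA and deposited log2 values for 61179 probe sets and 111 controls. All 10 columns were read, and the array labelled 100 DD replicate 2 entered only the fit of all 10 arrays. A probe set entered if 2 or more of the 9 arrays reached 4 (24727, or 24982 with all 10 arrays). Background is thus judged by level alone. A mean per stage was fitted with limma 3.58.1 in R 4.3.3 (statmod 1.5.0 for the random block), without the array labelled 100 DD replicate 2, with Benjamini-Hochberg adjustment over all probe sets and a threshold of 0.05. With 4 residual degrees of freedom, the number of arrays limits the precision. The methods' t-test was rebuilt with 1 variance common to all probe sets, after leaving out the extreme 1% at each end (a limit chosen here), and p-values from the normal distribution. Gene names came from the array's annotation, and RefSeq held 1272 of its 1273 named probe sets. Named were all member probe sets, all tested redox probe sets, cell type markers and, per tested member probe set, the 3 other named genes of highest correlation. The functions were tested on simulated data. Replicate numbers were taken to pair arrays by harvest, because labelled times of each number match 1 of the 2 harvests in the methods. Deviations of replicate 1 correlated between stages at 0.249 to 0.718 over 6 pairs of stages. Replicate 1 was also labelled earlier than replicate 2 at each of these stages, so this correlation cannot tell harvest from sampling time. Members and lists were chosen with earlier results of these data known. Promoter motifs and sequences were not analysed here.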

Additional observations from a re-analysis of the deposited data

Results flagged for a closer look

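The tested PER1 probe set stood at 13.69 on the array labelled 100 DD replicate 2, which entered only the fit of all 10 arrays, and at 2.18 on 100 DD replicate 1. CAT1 moved in opposite directions from 250 to 300 DD in the 2 harvests, by -0.039 in replicate 1 and 0.21 in replicate 2. With 1 array per harvest and stage this difference was not tested, and both values lie within the 95% interval of the step, from -0.49 to 0.66. Stages of 2 arrays are too small to look for single outlying arrays.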

How the results depend on the processing

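Values under 4 limit PER1 on the single 100 DD array, the shared Prx1 probe set on both 500 DD arrays and the other tested Prx1 probe sets on 500 DD replicate 1, and arrays are few. Over the stages, 5 of 5 members passed, with fixed and random replicate block as well, which changed no call of a member. With all 10 arrays or Bonferroni adjustment 0 members passed over the stages, at 200 against 100 DD (1 in the fit above), at 500 against 300 DD (2) or at 500 against 200 DD (5), and without both arrays with low spike-ins, chosen after seeing the data, 3, 1, 0 and 3 did. Without a filter 0 passed for 500 against 300 DD. The methods' t-test passed 1 there after Bonferroni adjustment, and after Benjamini-Hochberg adjustment 1 for 250 against 200 DD. Totals over all probe sets stand in the next paragraph. Where a setting has no total there, its count of members has no background to be read against. Leaving out 1 array gave 4 to 5 over the stages, 0 to 2 for 500 against 300 DD and 3 to 5 for 500 against 200 DD. With all 10 arrays, the 200 minus 100 DD differences of Prx1 turned to 0.77 (shared probe set), 0.79 (first) and 0.98 (second). That of CAT1 between 300 and 250 DD was -0.047 without 250 DD replicate 2 and up to 0.21 without 250 DD replicate 1. For Prx1 the 100 DD mean then joins both arrays with that label, and for CAT1 the 250 DD mean is then 1 array. Why the arrays of a stage differ was not tested.

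Of all probe sets, 6610 passed over the stages, 107 with all 10 arrays, 227 after Bonferroni adjustment, 3267 without the arrays with low spike-ins and 3549 to 6046 without 1 array. For 200 against 100, 300 against 250, 500 against 300 and 500 against 200 DD, 2461, 26, 3040 and 5396 passed, 67, 3, 45 and 122 with all 10 arrays, 140, 5, 115 and 225 after Bonferroni adjustment, 969, 0, 615 and 2071 without the arrays with low spike-ins, and 925, 167, 1290 and 2126 by the methods' t-test after Bonferroni adjustment. For 250 against 200 DD, 0 passed, and 193 by the methods' t-test after Benjamini-Hochberg adjustment, by which 418 passed for 300 against 250 DD. Without a filter 4 passed for 300 against 250 DD. Of 615 values of members under alternatives, 550 kept direction and side of the threshold, 56 no longer passed, 5 newly passed and 4 changed sign.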
